A study of Mus musculus with 2 samples.

Results

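Mitochondrially encoded transcripts are the RNAs made from the mitochondrion's own circular genome. The members are all genes whose symbol starts with mt-, and there are 37 of them among the 46984 features counted: 13 protein-coding genes, 2 ribosomal RNA (rRNA) genes and 22 transfer RNA (tRNA) genes. Single-cell RNA was captured by its 3′ end from sorted pancreatic endocrine cells of 1-month-old mice, in 2 libraries of 3 pooled animals each. Control animals were Neurod1 Cre/+; Isl1f/+ and Isl1CKO animals were Neurod1 Cre/+; Isl1f/f. Both genotypes therefore carried the same Cre allele, expressed in endocrine cells, and at least 1 floxed allele of Isl1, which encodes a transcription factor needed by the endocrine cells of the islet. Cells of both were sorted for tdTomato, a red fluorescent reporter, and were dissociated with actinomycin D, which blocks transcription.

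The mitochondrial genome encodes subunits of 4 of the complexes of oxidative phosphorylation, the process by which mitochondria make ATP. Complexes I, III and IV form the electron transport chain with the nuclear-encoded complex II, and complex V is the ATP synthase. All other subunits come from nuclear genes and are imported. Both strands are transcribed as long precursors that are cut at the tRNAs, and most of the messengers then receive a short poly(A) tail. ATP made by oxidation of glucose is what couples blood glucose to insulin release in beta cells.

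Cells were barcodes with at least 1000 UMIs (unique molecular identifiers, which count each captured RNA molecule once) and at least 500 genes. There were 4220 in control and 8310 in Isl1CKO, of which 17 and 80 carried markers of other cell types and were set aside. The other 4203 and 8230 are called all cells. They held 44685249 and 77422487 UMIs. The median cell had 9026 UMIs from 2455 genes in control and 8090 UMIs from 2857 genes in Isl1CKO. The libraries shared 8 barcode sequences, 0.190% of control and 0.0963% of Isl1CKO barcodes. Isl1 itself gave 305.9 CPM (UMI counts scaled to a common library total) in control and 354.6 in Isl1CKO. The part of the gene that is deleted is not given in the sources used here, and 3′ tags outside it would check nothing, so the genotypes are used as labelled. The control library is labelled as males, but 971 of its cells held Xist and no Y-linked transcript, against 1734 with the reverse, so values are also given within each sex. In the cells left, each list of acinar, immune, stromal, endothelial, erythroid or ductal markers made up at most 0.0169% of UMIs. Cells high in any of these lists but the ductal one had been set aside first, so low values follow in part from that step. As each genotype is 1 library, differences between genotypes are given without p-values or a check by replicates, and every 95% interval reflects counting error alone.

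The sequences are shown first because they bear on which members could be counted. In GENCODE vM21, on the GRCm38 build, chromosome 1 carries 7 annotated copies of mitochondrial genes between positions 24611535 and 24616197, all on the minus strand. Their order is that of mitochondrial positions 6381 to 11043, from within mt-Co1 to within mt-Nd4. The last 90 shared bases of mt-Co3, a subunit of complex IV, and of its copy Gm28437 are given 5′ to 3′, and capitals would mark substitutions.
mt-Co3 (chrM:9300-9389, plus strand): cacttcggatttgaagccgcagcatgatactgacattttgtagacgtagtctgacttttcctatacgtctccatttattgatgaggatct
Gm28437 (chr1:24613189-24613278, minus strand): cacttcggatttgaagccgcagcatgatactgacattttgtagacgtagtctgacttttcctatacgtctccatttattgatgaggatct
The lines have the same bases throughout, and so do the last 90 shared bases of mt-Atp6, a subunit of complex V, and its copy Gm10925.
mt-Atp6 (chrM:8515-8604, plus strand): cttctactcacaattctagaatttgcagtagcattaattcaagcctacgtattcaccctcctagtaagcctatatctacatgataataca
Gm10925 (chr1:24613974-24614063, minus strand): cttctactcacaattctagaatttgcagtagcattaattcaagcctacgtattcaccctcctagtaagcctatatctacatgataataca
The first 90 bases of mt-Nd3, a subunit of complex I, differ from its copy Gm28438 by the substitution T3C, counted from the first base of the mitochondrial gene.
mt-Nd3 (chrM:9459-9548, plus strand): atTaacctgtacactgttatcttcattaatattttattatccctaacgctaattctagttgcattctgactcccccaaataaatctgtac
Gm28438 (chr1:24613030-24613119, minus strand): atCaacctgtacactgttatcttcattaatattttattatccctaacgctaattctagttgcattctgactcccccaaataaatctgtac
The copy of mt-Co1, the catalytic core of complex IV, begins inside the gene, and its first bases hold 6 substitutions and then none.
mt-Co1 (chrM:6381-6470, plus strand): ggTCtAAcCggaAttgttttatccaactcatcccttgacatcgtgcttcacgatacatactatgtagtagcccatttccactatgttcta
Gm29216 (chr1:24616108-24616197, minus strand): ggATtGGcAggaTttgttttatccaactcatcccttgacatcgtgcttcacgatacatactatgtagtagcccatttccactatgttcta
For contrast, the 3′ ends of mt-Cytb, the mitochondrial subunit of complex III, and of mt-Nd4, of complex I, have no annotated copy.
mt-Cytb (chrM:15199-15288, plus strand): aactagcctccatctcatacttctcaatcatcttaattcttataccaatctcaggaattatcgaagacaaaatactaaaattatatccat
mt-Nd4 (chrM:11455-11544, plus strand): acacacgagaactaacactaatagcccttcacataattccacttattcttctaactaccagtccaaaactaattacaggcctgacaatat

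Every 50-base window of each mitochondrial transcript was looked up in all other annotated transcripts, on both strands. The copies of mt-Co2 (Gm28661), mt-Atp6, mt-Co3, mt-Nd4l (Gm10222) and mt-Nd4 (Gm28439) had 0 substitutions over 681, 678, 783, 294 and 876 aligned bases. The copy of mt-Nd3 had 1 over 345 bases, and that of mt-Co1 had 6 over 492 bases. Of the 15 genes other than tRNAs, 5 had over 95% of their windows elsewhere. These were mt-Co2 with 635 of 635 windows, mt-Co3 with 734 of 735, mt-Atp6 with 629 of 632, mt-Nd4l with 245 of 248 and mt-Nd3 with 293 of 299. In mt-Nd4 the shared windows, 827 of 1329, lay in the 5′ part, and all 251 windows in its last 300 bases were its own. In mt-Co1 it was the reverse: 765 of 1496 windows were shared and 0 of the 251 in its last 300 bases were its own. mt-Rnr1, mt-Nd1, mt-Nd6, mt-Cytb and mt-Atp8 shared none.

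Of the 37 members 17 had 0 UMIs in all cells of both libraries. They included 5 protein-coding genes, mt-Co2 and mt-Co3 of complex IV, mt-Atp6 and mt-Atp8 of complex V and mt-Nd4l of complex I, which also had 0 UMIs in every other barcode. For a single gene a count of 0 allows up to 0.0671 CPM in control and 0.0387 in Isl1CKO, taking 3 counts as the limit. Of these 5 genes, 4 have nearly all their windows in a chromosome 1 copy. The fifth, mt-Atp8 (chrM:7766-7969), has no annotated copy but lies inside the copied stretch, and the genome sequence there was not used here. All 7 copies together held 1 UMI in control and 2 in Isl1CKO. mt-Nd3, with 6 windows of its own, kept 254 and 1247 UMIs, and mt-Co1 and mt-Nd4 kept more. How reads with several matches were counted is not given in the sources used here, and the part of the copies in the zeros was not tested. The mitochondrial share reported below is therefore the share of the members that were counted. Complex IV is represented in it by mt-Co1 alone, and complex V is not represented.

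**Figure D1:**
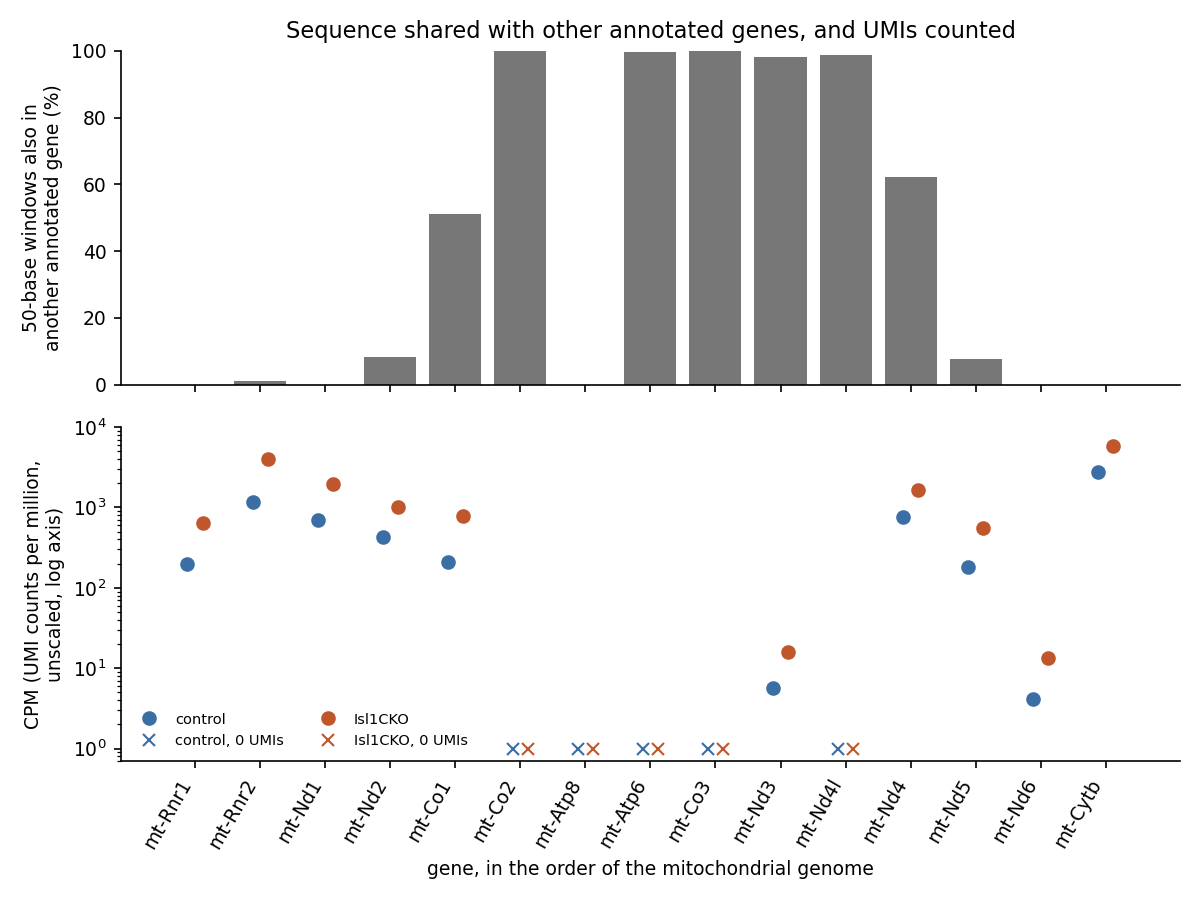
The upper panel gives, for the 13 protein-coding and 2 rRNA genes in genome order, the percentage of 50-base windows also found in another annotated gene; the lower panel gives unscaled CPM in each library on a log axis, with crosses at the bottom for 0 UMIs. Genes with 0 UMIs are those with nearly all windows shared, and mt-Atp8, which lies between them with no annotated copy; mt-Nd3 is the gene with 98.0% of windows shared that still has UMIs.

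The tRNA genes were nearly silent in these libraries, as 12 of 22 had 0 UMIs in both and 4 more had 0 in control only. All 22 together gave 12 UMIs in control and 101 in Isl1CKO. The tRNAs with the most UMIs were mt-Tt, for threonine, with 4 and 39, and mt-Tc, for cysteine, with 3 and 26. Poly(dT) capture does not target mature tRNAs. Of the 37 members, 10 were measured (at least 5 CPM after TMM scaling in 1 library): both rRNAs and 8 protein-coding genes.

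Among the measured members the levels per length spanned over 2 orders of magnitude. On the scale of CPM per kilobase of transcript, not scaled by TMM, mt-Cytb was highest, with 2417 in control and 5037 in Isl1CKO. It was followed by mt-Rnr2, the large rRNA, with 748.8 and 2550, and by mt-Nd1 with 733.1 and 2044. mt-Nd4 had 553.8 and 1193 and mt-Nd2 416.4 and 968.8, both of complex I. The small rRNA, mt-Rnr1, had 205.0 and 673.2, mt-Co1 had 134.3 and 500.3, and mt-Nd5, of complex I, had 99.9 and 304.6. The lowest were mt-Nd3, with 16.3 and 46.3, and mt-Nd6, the complex I subunit read from the other strand, with 7.89 and 25.8. The minus strand holds 9 of the 37 members, mt-Nd6 and 8 tRNAs. Because 3′ capture counts a molecule once whatever its length, and because shared windows differ between genes, this order, the same in both libraries, is one of counted molecules per length. By UMIs alone mt-Nd4 stood above mt-Nd1 in control and below it in Isl1CKO.

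Mitochondrial transcripts took a larger share of UMIs in the Isl1CKO library. Summed by class over all cells, the rRNAs differed more than the protein-coding members, which does not hold for every single gene. In control 287844 UMIs, 0.644% (0.642 to 0.647%), were mitochondrial, and in Isl1CKO 1270052, 1.64% (1.638 to 1.643%). The share of the protein-coding members was 0.506% and 1.17%, and that of the rRNAs 0.138% and 0.468%. The median cell held 60 mitochondrial UMIs in control and 132 in Isl1CKO. Per cell the median share was 0.631% (quartiles 0.481 and 0.844%) in control and 1.53% (1.11 and 2.10%) in Isl1CKO, so the quartile ranges did not overlap.

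Part of this gap lay in the denominator. Hormone genes (Gcg, Sst, Ppy, Pyy, Ins1, Ins2, Iapp and Ghrl) took 42.2% of all control UMIs and 3.71% of Isl1CKO UMIs, which alters the denominator of every other share. Of UMIs other than hormone genes, 1.11% were mitochondrial in control and 1.70% in Isl1CKO. TMM scaling, which sets the typical gene to no change, gave a mitochondrial log2 ratio (Isl1CKO over control) of 0.81 (0.80 to 0.81), a 1.75-fold difference. The ratio of unscaled shares was 2.55-fold, a log2 ratio of 1.35, and that of non-hormone shares 1.53-fold, a log2 ratio of 0.61. All 3 place Isl1CKO higher. The median log2 ratio over all measured genes under TMM was 0.04; unscaled values shift every log2 ratio by 0.54 and non-hormone values by -0.20. A difference was called if it reached 2-fold and its interval left out 1. Under TMM the rRNA sum was called, at a log2 ratio of 1.22 (1.21 to 1.23). The tRNA sum was too, at 1.64 (0.87 to 2.74), on 12 and 101 UMIs. The sum of protein-coding members was not, at 0.67 (0.66 to 0.68).

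Gene by gene, under TMM, 5 of the 37 members were called higher in Isl1CKO and 0 lower, where 6.52% of all measured genes were called higher and 6.35% lower. All 10 measured members lay above 0 under each of the 3 scalings. mt-Co1 stood furthest up, from 9273 to 59843 UMIs, a log2 ratio of 1.36 (1.32 to 1.39). As given above, 0 of the 251 windows in its last 300 bases were its own, and from which part of the gene its UMIs came was not tested. The rRNAs followed: mt-Rnr2 went from 52932 to 312290 UMIs (log2 ratio 1.23, interval 1.21 to 1.24), and mt-Rnr1 from 8749 to 49775 (1.17, interval 1.14 to 1.21). The rRNAs are the RNA of the ribosome that translates the mitochondrial messengers. The other members called were both of complex I: mt-Nd6, from 183 to 1037 UMIs, at 1.16 (0.94 to 1.40), and mt-Nd5, from 8142 to 43014 UMIs, at 1.07 (1.03 to 1.10).

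The remaining 5 were also higher but under 2-fold. mt-Nd3 stood at 0.96 (0.77 to 1.16), with few UMIs. mt-Nd1, from 31349 to 151471 UMIs, stood at 0.94, and mt-Nd2, from 19316 to 77860, at 0.68. mt-Nd4, from 34101 to 127318 UMIs, stood at 0.57, and mt-Cytb, from 123533 to 446096, at 0.52 (0.51 to 0.53). The measured complex I genes thus covered a range from 0.57 to 1.16, and the messenger with the most counted UMIs, mt-Cytb, had the lowest ratio. With non-hormone UMIs as the denominator, 2 members were called, mt-Co1 at 1.16 and mt-Rnr2 at 1.03, where 4.86% of measured genes were called higher and 10.2% lower. With unscaled shares all 10 measured members were called higher, where 22.5% of all measured genes were called higher and 2.72% lower.

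**Figure D2:**
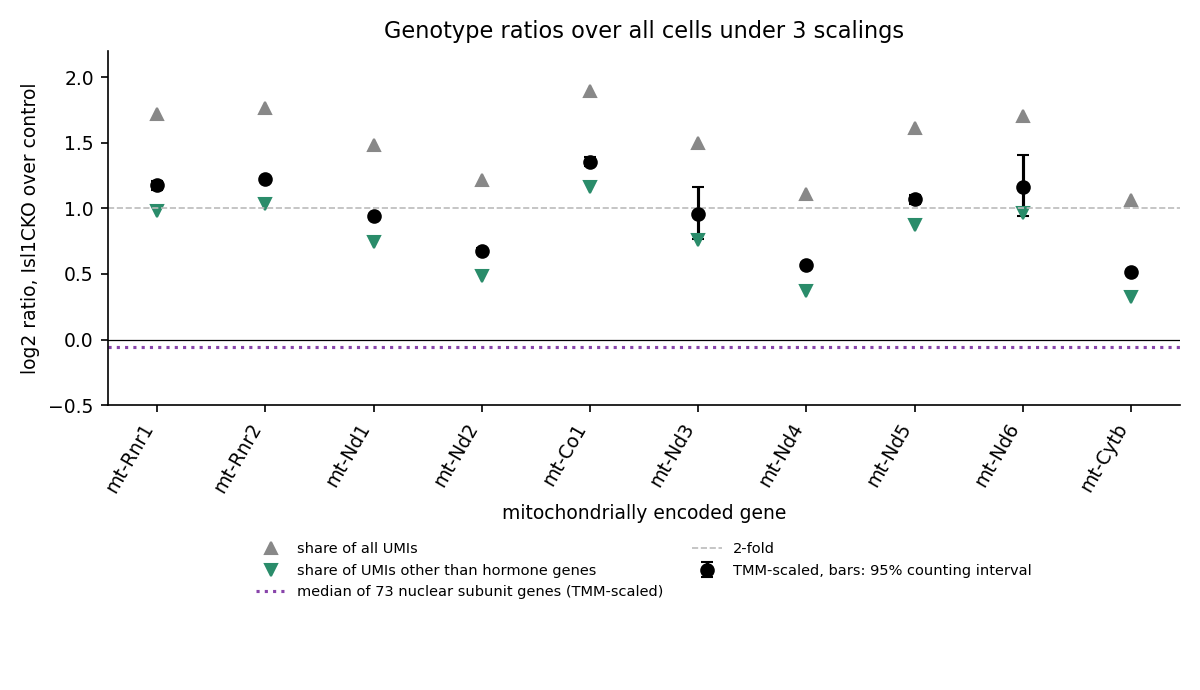
Log2 ratios of Isl1CKO over control in all cells for the 10 measured mitochondrial genes: circles are TMM-scaled with 95% counting intervals, upward triangles shares of all UMIs and downward triangles shares of non-hormone UMIs. All points lie above 0. The circles also lie above the dotted line, the TMM-scaled median of -0.06 over 73 nuclear subunit genes, which is on the scale of the circles only. Each scaling moves all genes by 1 constant, so their order, from mt-Co1 down to mt-Cytb, is the same in all 3.

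The makeup of the mitochondrial RNA, which does not depend on the rest of the cell's UMIs, differed between the libraries over all cells. mt-Cytb made up 42.9% of control mitochondrial UMIs and 35.1% of those in Isl1CKO. mt-Rnr2 made up 18.4% and 24.6%, and mt-Co1 3.22% and 4.71%. mt-Nd4 made up 11.8% and 10.0%, whereas mt-Nd1 stayed nearer, at 10.9% and 11.9%. Both rRNAs together made up 21.4% (21.3 to 21.6%) and 28.5% (28.4 to 28.6%). The share of rRNA also depended on depth: among control cells it was 25.3% at 4000 to 7999 UMIs and 17.1% at 16000 or more, and among Isl1CKO cells 34.3% and 21.2%. At each of the 5 depths it was higher in Isl1CKO. The gap was not of one size in all cells. The rRNA part was 21.4% in control and 22.7% in Isl1CKO among male cells, 21.5% and 32.2% among female cells, and 19.1% and 20.1% among glucagon cells. In male glucagon cells the order was reversed, with 7685 rRNA UMIs of 40166 mitochondrial ones in 596 control cells and 1033 of 7168 in 30 Isl1CKO cells.

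Nuclear genes of the same complexes did not share the difference. Over all cells 73 of 78 nuclear subunit genes of complexes I, III, IV and V were measured, and their median log2 ratio under TMM was -0.06. Of these 1 was called higher, Atp5l of complex V (372 and 1998 UMIs, log2 ratio 1.09). Another was called lower, Ndufs5 of complex I (1064 and 1249 UMIs, -1.10). Of all measured genes 6.52% were called higher and 6.35% lower. In total these genes took 1.81% of control and 2.46% of Isl1CKO UMIs, a summed log2 ratio of -0.10 under TMM. By complex the medians were -0.07 for 36 genes of complex I, 0.01 for 4 of complex II, -0.02 for 9 of complex III, -0.06 for 12 of complex IV and -0.18 for 16 of complex V. So on a common scaling the measured mitochondrial members stood at 0.52 to 1.36 while the nuclear subunits had a median near 0.

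The nuclear genes that serve the mitochondrial genome were likewise mostly under 2-fold, and so were measured genes at large. Of the latter 6.52% were called higher and 6.35% lower, so the counts below are not read as a result about these lists. Of 20 measured genes of mitochondrial transcription and RNA processing, 0 were called higher and 1 lower, 1110008L16Rik at -1.17, and the median was -0.14. The highest among them was Slirp, an RNA-binding protein that stabilises mitochondrial messengers, at 0.58, followed by Tfb2m, a transcription factor of the mitochondrial RNA polymerase, at 0.54. Of 13 genes of mitochondrial DNA maintenance 0 were called, with a median of -0.13. Tk2, a kinase that supplies the nucleotides for mitochondrial DNA, stood highest at 0.96, and Dguok, another such kinase, lowest at -0.86. Among 7 measured regulators of mitochondrial biogenesis, whose median was 0.45, Esrrg was called higher. Esrrg encodes an estrogen-related nuclear receptor of oxidative tissues and of mature beta cells; it had 71 UMIs in control and 924 in Isl1CKO, a log2 ratio of 2.35. Of 74 mitochondrial ribosomal protein genes 0 were called higher and 3 lower, Mrps6 at -1.33, Mrpl36 at -1.22 and Mrps25 at -1.01, with a median of -0.18. The median of that ribosome's protein genes thus had the opposite sign to its rRNAs under TMM. Single protein genes also lay above 0, the highest being Mrps23 at 0.52 and Mrpl9 at 0.43. Unscaled, the protein genes' median was 0.37.

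Cell groups were set by hormone UMIs (at least 1% of a cell's UMIs) and, in cells with no hormone at that level, by transcription factors of alpha cells, of beta cells or of both. In 3 groups both libraries had at least 50 cells. In insulin cells (187 control, 929 Isl1CKO) the mitochondrial share was 0.489% in control and 1.58% in Isl1CKO, the widest unscaled gap of the 3. In glucagon cells (1579 and 172) it was 0.660% and 1.32%. In cells with beta factors and no hormone at the limit (82 and 2847) it was 1.40% and 1.92%, the narrowest gap, and in these hormone genes took 2.59% and 1.61% of UMIs. Insulin cells of the control gave 66.6% of their UMIs to hormone genes and those of Isl1CKO 17.1%.

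Put on TMM scaling, the 3 groups lay close together. The mitochondrial log2 ratio was 0.59 (0.57 to 0.61) in insulin cells, 0.74 (0.72 to 0.76) in glucagon cells and 0.68 (0.64 to 0.72) in beta factor cells, none of them called. Non-hormone shares gave 0.38, 0.34 and 0.44. In insulin cells 3 members were called higher, mt-Co1 at 1.19, mt-Nd5 at 1.08 and mt-Rnr2 at 1.00, on the 2-fold limit, where 9.11% of measured genes were called higher. In glucagon cells 4 were, mt-Co1 at 1.33, mt-Nd3 at 1.24, mt-Nd6 at 1.09 and mt-Rnr1 at 1.04, against 9% of measured genes. Of these mt-Nd6 rested on 51 and 20 UMIs and mt-Nd3 on 113 and 50. In beta factor cells 2 were, mt-Co1 at 1.18 and mt-Rnr2 at 1.01, against 6.38%. No member was called lower in any of the 3 groups, where 6.68%, 10.6% and 5.21% of measured genes were. Under TMM mt-Co1 was thus called in each of the 3 groups, while mt-Cytb stood at 0.20 in insulin, 0.76 in glucagon and 0.37 in beta factor cells. These calls depend on the scaling. With non-hormone shares the highest member stood at 0.98, 0.93 and 0.95 in the 3 groups, under 2-fold, and 1 of the 10 members lay below 0 in insulin cells (-0.01) and 1 in glucagon cells (-0.05). With unscaled shares mt-Co1 stood at 2.29, 1.58 and 0.96, so in beta factor cells the highest member was then under 2-fold too.

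The nuclear subunit genes had a lower median than the mitochondrial members in each of the 3 groups. Their median log2 ratio was -0.11 in insulin cells, with 2 of 73 called higher and 3 lower, and 0.04 in beta factor cells, with 1 higher and 2 lower. In glucagon cells it was 0.35, with 5 of 73 called higher and 0 lower. That share is below the 9% of all measured genes called higher there, so it is no result about these genes. The 5 were Ndufa1, Cox6b2, Atp5l, Cox5a and Usmg5, at 2.08, 1.56, 1.56, 1.21 and 1.12. The median difference between mitochondrial members and nuclear subunits was therefore smallest in glucagon cells, where the mitochondrial members had a median of 0.80.

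Other groups had enough cells in 1 library only. In control, the share was 0.757% in 217 somatostatin cells, 0.669% in 1681 cells with 2 or more hormones and 0.518% in 438 pancreatic polypeptide cells. In barcodes of 10 to 100 UMIs, too small to be cells, hormone genes took 42.2% of UMIs in control and 2.50% in Isl1CKO. The part of RNA from outside the cell in the multihormone group was not tested. Of non-hormone UMIs the control groups ran from 1.07% in glucagon cells through 1.08%, 1.09% and 1.17% in somatostatin, multihormone and pancreatic polypeptide cells to 1.43% in beta factor and 1.47% in insulin cells. The order by share of all UMIs, in which insulin cells were lowest, was thus not the order by non-hormone UMIs, in which they were highest. In Isl1CKO, 1512 cells with alpha factors had 1.26% and 1412 with both kinds of factor 1.30%. The 83 cells with Hhex only, a delta cell factor, had 1.67% and the 1261 cells with no factor 2.50%. The last group was also the shallowest, with a median of 4579 UMIs, and its upper quartile reached 5.46% per cell.

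**Figure D3:**
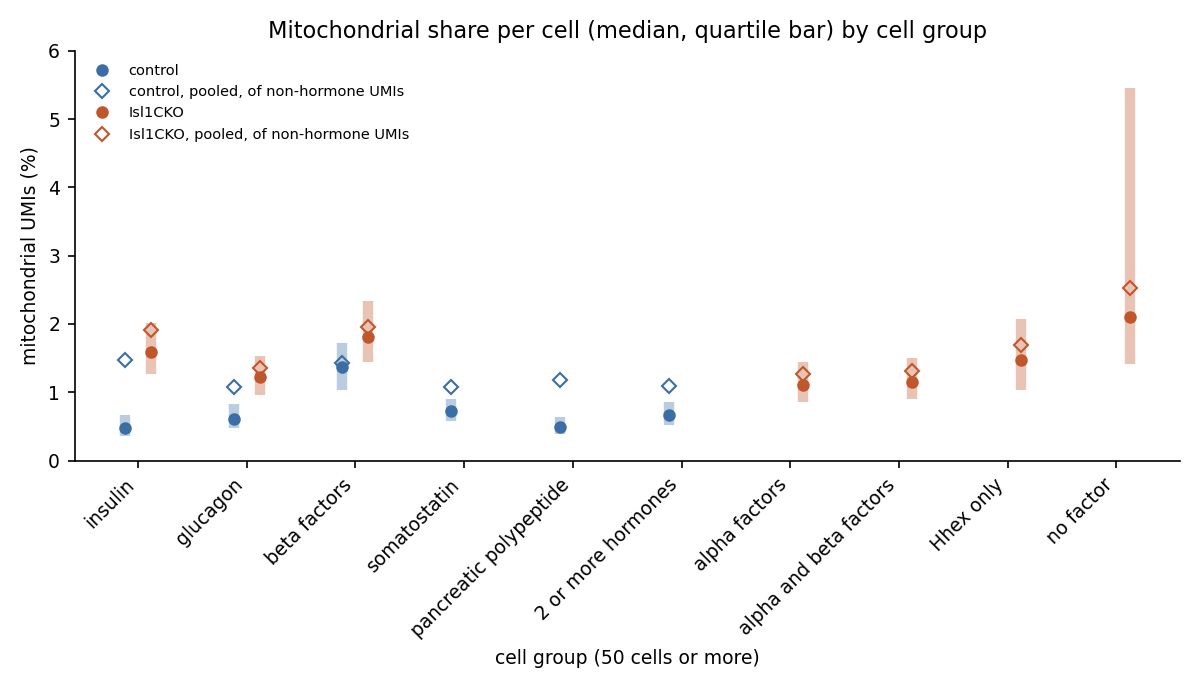
Mitochondrial share of UMIs in cell groups of at least 50 cells: filled circles are medians over cells with bars from the lower to the upper quartile, and open diamonds are the pooled share of UMIs other than hormone genes. In control insulin cells the median, 0.478%, and the pooled non-hormone share, 1.47%, lie far apart. In Isl1CKO groups the 2 measures lie nearer, at 1.58% and 1.91% in insulin cells and 2.10% and 2.52% in cells with no factor. Cells with no factor spread the most.

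Within the Isl1CKO library, the mitochondrial share of UMIs was larger in cells with beta factors than in cells with alpha factors. It was 1.92% (1.915 to 1.926%) against 1.26% (1.256 to 1.268%). The same order was seen in male cells, 2.16% and 1.49%, and in female cells, 1.78% and 1.13%. Under TMM the log2 ratio of beta over alpha factor cells lay between 0.12 and 0.74 for the 10 measured members. It was highest for mt-Rnr2, at 0.74, and mt-Rnr1, at 0.72, and lowest for mt-Cytb, at 0.13, and mt-Nd3, at 0.12. None was called, where 6.01% of measured genes were called higher and 3.29% lower. The nuclear subunit genes had a median of -0.25 under TMM and of 0.00 with unscaled shares, which raise every ratio in this comparison by 0.25; non-hormone shares raise them by 0.27. The rRNAs were also a larger part of the mitochondrial UMIs in beta factor cells, 31.4% against 24.1%. In male cells 3 of the 10 members had ratios below 0 under TMM, so this order of levels by gene did not hold in both sexes. The median male cell held 179.5 mitochondrial UMIs with beta factors and 187 with alpha factors, at median depths of 8315.5 and 13741 UMIs.

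The members called differed between the sexes. Male cells had a Y-linked UMI and no Xist, the RNA that silences an X chromosome in females, and female cells the reverse. A further 1368 control and 913 Isl1CKO cells had neither kind of UMI, and 130 and 256 had both kinds. Sex was set from these UMIs alone. If each pool of 3 animals held both sexes, each sex of a library came from at most 2 animals. Sex and animal therefore cannot be told apart. In male cells (1734 and 1700) the mitochondrial share was 0.636% in control and 1.79% in Isl1CKO, and in female cells (971 and 5361) 0.629% and 1.53%. Under TMM the log2 ratios were 0.98 (0.97 to 0.99) and 0.85 (0.84 to 0.86). In male cells 9 members were called higher, all measured ones but mt-Cytb, which stood at 0.76, where 4.77% of measured genes were called higher and 4.41% lower. In female cells 3 were, mt-Co1 at 1.46, mt-Rnr2 at 1.45 and mt-Rnr1 at 1.29, where 10.3% were and 9.58% were called lower.

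The genes differed in how far apart the sexes stood. mt-Nd2 stood at 1.18 in male and 0.46 in female cells, mt-Nd4 at 1.05 and 0.38, and mt-Nd5 at 1.53 and 0.96. These 3 are of complex I, but mt-Nd1, of the same complex, stood at 1.09 and 0.97. mt-Cytb stood at 0.76 and 0.52, mt-Co1 at 1.41 and 1.46, and mt-Rnr2 the other way round, at 1.06 and 1.45. Set directly against each other, female over male cells of Isl1CKO gave log2 ratios of -0.80 for mt-Nd2, -0.76 for mt-Nd4, -0.77 for mt-Nd5, -0.95 for mt-Nd6 and -0.70 for mt-Nd3. For mt-Cytb, mt-Nd1, mt-Co1, mt-Rnr1 and mt-Rnr2 the same ratio was -0.32, -0.16, -0.04, 0.13 and 0.32. In control, female over male ratios of the 10 members lay between -0.21 and 0.07. None of these was past 2-fold, where in Isl1CKO 5.16% of measured genes were called higher and 6.43% lower in female cells. Other measures moved with sex in Isl1CKO too: ribosomal protein genes took 15.3% of UMIs in female and 9.35% in male cells, and tdTomato 0.727% and 0.152%. Median depth was 7824 and 10841 UMIs. Their part in the difference was not tested.

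**Figure D4:**
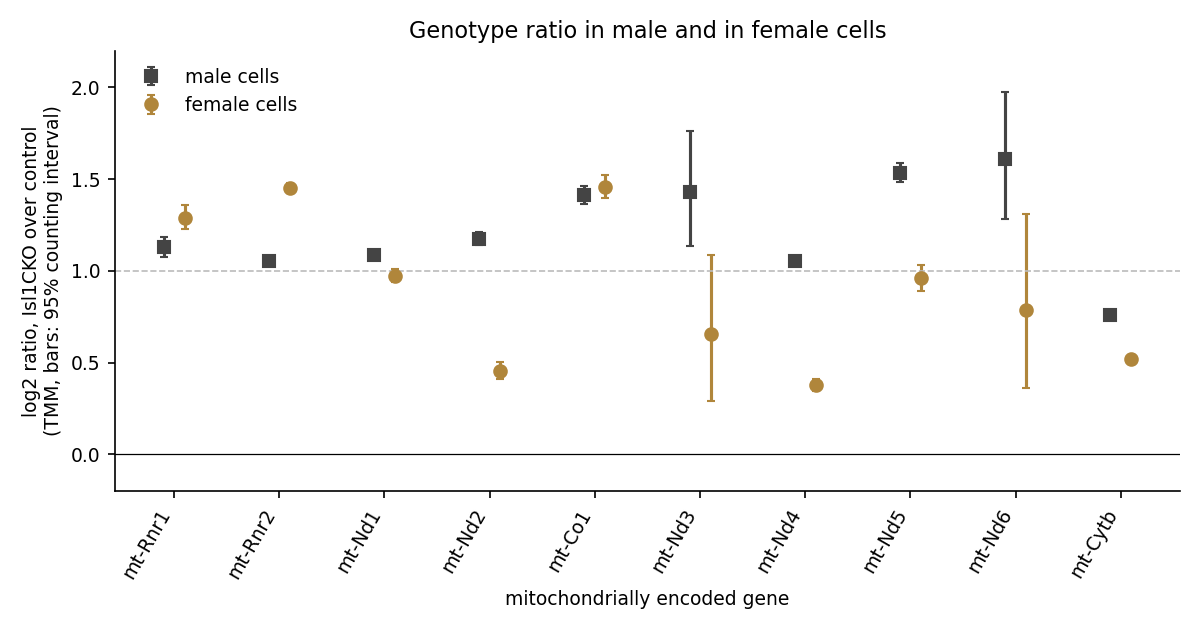
TMM-scaled log2 ratios of Isl1CKO over control for the 10 measured mitochondrial genes in male cells (squares) and female cells (circles), with 95% counting intervals. mt-Nd2, mt-Nd4 and mt-Nd5 are lower in female than in male cells, mt-Rnr2 is higher, and mt-Co1 is alike within its interval.

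The mitochondrial share of all UMIs was lower in deeper cells of both libraries. In control it was 3.71% in 113 cells of 1000 to 1999 UMIs, 1.33% in the next depth class, then 0.808%, 0.621% and 0.512% in 539 cells of 16000 or more. In Isl1CKO it was 8.44% in 484 cells, 3.70%, 1.64%, 1.53% and 1.42% in 997 cells. Hormone genes took 29.1% of UMIs in control cells of 4000 to 7999 UMIs and 54.0% in those of 16000 or more. Of non-hormone UMIs the control shares were 4.70%, 1.90%, 1.14%, 1.05% and 1.11%, so from 4000 UMIs upward they were nearly level. Those of Isl1CKO were 8.51%, 3.73%, 1.66%, 1.58% and 1.55%. Isl1CKO was higher in each of the 5 depth classes, from 2000 UMIs upward as well as below. Across cells Spearman's rho of share and depth was -0.44 in control and -0.27 in Isl1CKO, a description only, since each share has the cell's own depth as its denominator.

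Cells with a high share were rare in control and less so in Isl1CKO. Above 5% lay 34 of 4203 control cells, 0.809% (0.561 to 1.13%, exact Clopper-Pearson), and 528 of 8230 Isl1CKO cells, 6.42% (5.90 to 6.97%). Above 10% lay 5 and 192 cells, above 15% 1 and 77, and above 20% 0 and 29. The highest single cell had 15.3% in control and 34.6% in Isl1CKO. These cells were shallow, with a median of 1338.5 UMIs in control and 1721 in Isl1CKO above the 5% limit. The nuclear RNA Malat1 was high in the same cells: it took 25.8% and 19.3% of UMIs in cells with 5 to 10% mitochondrial UMIs, against 1.79% and 3.14% in cells with less than 1%. Ribosomal protein genes, which are read in the cytosol, took 2.42% and 5.12% in the first and 8.13% and 14.3% in the second. The part of RNA quality in this was not tested. Leaving out every cell above 5% took the mitochondrial log2 ratio under TMM from 0.81 to 0.73.

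**Figure D5:**
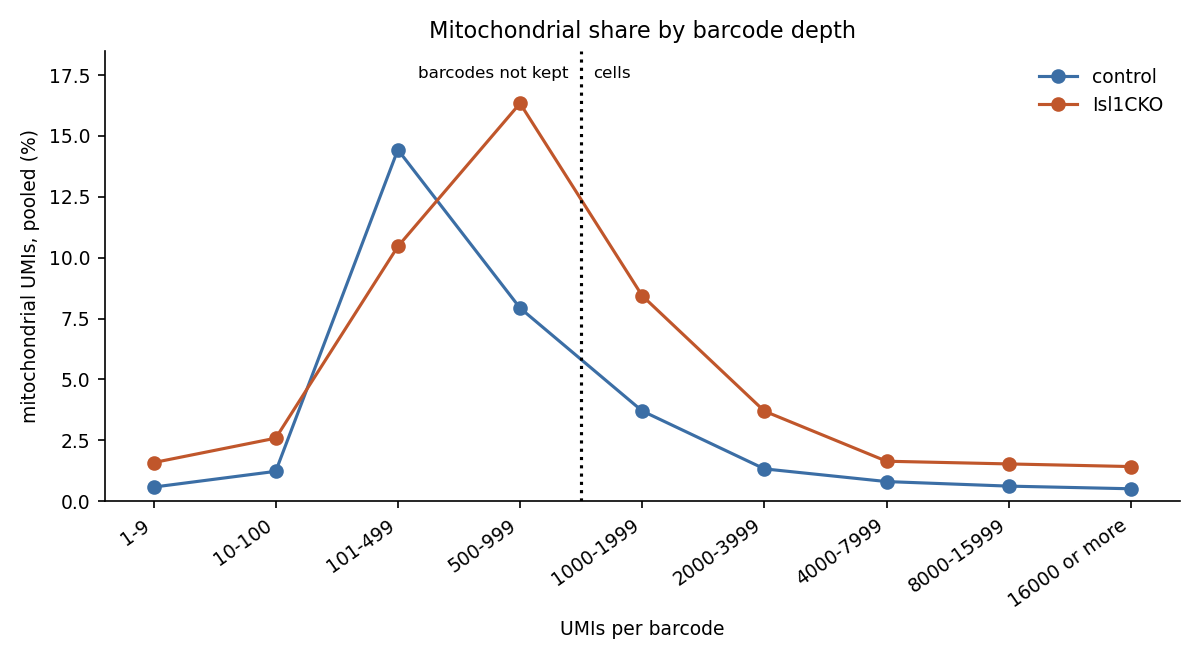
Pooled mitochondrial share of UMIs by UMIs per barcode; classes left of the dotted line are barcodes not kept as cells and classes right of it are cells. The Isl1CKO line lies above the control line in every class but that of 101 to 499 UMIs, where control has 14.4% and Isl1CKO 10.5%.

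Barcodes too small to be cells carried the members too. Those of 10 to 100 UMIs, which mostly sample free RNA, held 1.23% mitochondrial UMIs in control and 2.59% in Isl1CKO, above the cells' own 0.644% and 1.64%. In them mt-Rnr2 made up 24.6% and 31.2% of mitochondrial UMIs, against 18.4% and 24.6% in cells, and mt-Cytb 40.0% and 33.7%. These barcodes thus held more rRNA than cells in both libraries. Barcodes of 1 to 9 UMIs did the reverse: rRNA made up 10.9% and 13.6% of their mitochondrial UMIs, against 21.4% and 28.5% in cells, and their mitochondrial share was 0.581% and 1.59%. In both classes Isl1CKO had the higher share. Acinar markers took 0.0308% of the UMIs of barcodes of 10 to 100 UMIs in control and 0.729% in Isl1CKO. Subtracting free RNA as 5% of the cells' UMIs gave a mitochondrial log2 ratio of 0.85 under TMM.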

How the data were processed

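The deposited files hold unnormalized UMI counts for 46984 features in all barcodes of 2 libraries. The genome build GRCm38.p6 and the tools STARsolo, from STAR 2.7.3a, and Seurat 4.3.0.1 are named in the submitters' processing notes; multi-mapping rules and gene annotation are not given in the sources used here. UMI counts were summed over cells per library and group and scaled by TMM (edgeR 4.0.16, R 4.3.3), or by DESeq2 1.42.0 size factors as an alternative. Log2 ratios had 1 added to each sum and exact conditional Poisson intervals; shares had Clopper-Pearson ones, all for counting error alone. UMIs of 1 library are not replicates. The ratio code was tested on simulated counts. Scrublet (scanpy 1.11.5) marked 176 control cells and, having marked 2 in Isl1CKO, 272 there at the control threshold; doublets were kept except as an alternative. Non-endocrine cells had acinar or erythroid markers at 1% of UMIs, or immune, stromal or endothelial markers at 0.3%. Gene positions and transcripts are those of GENCODE vM21, a match chosen here. All mt- genes are accounted for, with values for each protein-coding and rRNA gene and each tRNA with 20 or more UMIs in 1 library; of other lists, the genes called or the 2 highest and 2 lowest were open to naming. The members and lists were chosen with earlier results of these data known.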

Additional observations from a re-analysis of the deposited data

Results flagged for a closer look

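Barcodes outside the cells gave a mitochondrial signal above that of the control library. In Isl1CKO barcodes of 500 to 999 UMIs, 16.3% of UMIs were mitochondrial (16.2 to 16.4%), against 7.93% in control barcodes of the same size. Malat1 took 10.2% of UMIs in the first and 21.3% in the second. The rRNAs made up 31.8% and 25.1% of the mitochondrial UMIs. In Isl1CKO barcodes of 10 to 100 UMIs, 2.59% of UMIs were mitochondrial, against 1.23% in control. In barcodes of 101 to 499 UMIs the order was the other way, 10.5% in Isl1CKO and 14.4% in control, where hormone genes took 1.74% and 26.3%.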

How the results depend on the processing

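The mitochondrial log2 ratio was above 0 under every alternative run, for all cells (0.61 to 1.35), insulin cells (0.38 to 1.73) and glucagon cells (0.34 to 1.00). In that order of cells, unscaled shares gave 1.35, 1.69 and 1.00, non-hormone shares 0.61, 0.38 and 0.34, and unscaled medians per cell 1.27, 1.73 and 0.99. Male cells gave 0.98, 0.76 and 0.67, and female cells 0.85, 0.67 and 0.84. The female insulin value rested on 20 control and 519 Isl1CKO cells. The male glucagon value rested on 596 control and 30 Isl1CKO cells. Both fell below the minimum of cells per library used for the cell groups above, so these values are given as a description only. A minimum of 3000 UMIs gave 0.76, 0.62 and 0.78, and one of 500 UMIs 0.82, 0.54 and 0.65. Leaving out cells above 15% mitochondrial UMIs gave 0.79 over all cells, and above 5% 0.73 over all cells and 0.76 in glucagon cells. Subtracting free RNA gave 0.85 over all cells and 0.65 in insulin cells, and DESeq2 size factors 0.57 in insulin cells. A hormone limit of 5% gave 0.51 in insulin and 0.63 in glucagon cells, and a limit of 0.5% 0.70 in glucagon cells. The count of members called higher over all cells, 5, became 3 in female cells, 9 in male cells, 2 with non-hormone shares and 10 unscaled, and was 5 to 7 otherwise. The cause of these changes was not tested. For the settings with 5 to 7 the share of all measured genes called is not given. Their counts are therefore not read as a result about the members. No paired analysis was possible because each genotype has 1 library, which also leaves no library to leave out. Members with fewer than 2000 UMIs, mt-Nd3 and mt-Nd6, have the widest intervals among those measured.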
